A study of Mus musculus with 6 samples.

Results

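The 10 genes described here encode the 5 subunits of NF-kB (Nfkb1, Nfkb2, Rel, Rela and Relb) and 5 proteins listed as inhibitors that NF-kB itself can induce (Nfkbia, Nfkbie, Nfkbiz, Tnfaip3 and Tnip3). Their transcripts were measured in Tregs, regulatory T cells that hold immune responses in check and carry CD4 and much CD25 on their surface, sorted from the spleens of untreated male mice 45 weeks old. The KO group held 3 DJ-1-/- mice, which lack Park7, the gene of the DJ-1 protein, and the WT group held 3 DJ-1+/+ littermates, with 1 Affymetrix Mouse Gene 2.0 ST array for each mouse. The labels name no strain, no deleted exon and no deletion restricted to a cell type. The genes were picked by symbol: every probe set whose platform annotation gave a single symbol, and that symbol one of the 10, was a member. This gave 143 exon-level probe sets of 233753 with 1 symbol, and 10 genes of 23152. Probe sets were taken as log2(intensity + 16) and summarised for each gene by their median. All 10 genes lay above the floor of 5.90 log2 units under which genes were not tested, so all 10 were among the 13891 tested.

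NF-kB proteins work as pairs. In resting cells IkB proteins, among them the products of Nfkbia and Nfkbie, hold the pairs in the cytoplasm. In the canonical branch, antigen receptors, TNF receptors and interleukin 1 receptors activate the IKK kinases, IkB is degraded, and pairs that contain the products of Nfkb1, Rela and Rel enter the nucleus. In the alternative branch, several TNF receptor family members stabilise the kinase NIK, the Nfkb2 precursor is processed, and its product acts together with RelB. The pathway restrains itself because NF-kB induces its own inhibitors, and Rel and Rela are both known to be needed for Treg development and function.

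The targeted gene and the Treg markers were looked at first. Park7 was at 6.06, 5.96 and 5.71 log2 units in KO replicates 1 to 3, against 9.48, 9.27 and 9.70 in WT replicates 1 to 3. The 9 Treg markers measured, among them Foxp3, Il2ra and Ctla4, averaged 11.92 to 12.01 in the KO arrays and 12.02 to 12.07 in the WT arrays, and none of them differed past the threshold. Median intensities were 88.6 to 99.9 in the KO arrays and 95.3 to 100.2 in the WT arrays. KO replicate 1 stood apart from the other 5 arrays, with the lowest mean correlation over probe sets (0.951, against 0.957 to 0.964). Values without it are given for several genes, but not for every gene whose difference changed without it. With 3 arrays a group, the precision of all values is limited by that number.

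The start of several of these genes carries the sequence that NF-kB itself binds, which is why 4 promoter windows are shown. RefSeq promoter windows (GRCm38.p6, 250 bases before to 50 after a start site) were held for 7 of the 10 genes, in 10 windows. They were searched on both strands for the kappaB decamer consensus, and capitals mark its matches, with overlapping matches run together. The Tnip3 window lies at chr6:65590148-65590447 on the plus strand, the Nfkb2 window with most matches at chr19:46304487-46304786 on the plus strand, the Nfkbia window at chr12:55492598-55492897 on the minus strand and the Tnfaip3 window with matches at chr10:19015361-19015660 on the minus strand.
Tnip3: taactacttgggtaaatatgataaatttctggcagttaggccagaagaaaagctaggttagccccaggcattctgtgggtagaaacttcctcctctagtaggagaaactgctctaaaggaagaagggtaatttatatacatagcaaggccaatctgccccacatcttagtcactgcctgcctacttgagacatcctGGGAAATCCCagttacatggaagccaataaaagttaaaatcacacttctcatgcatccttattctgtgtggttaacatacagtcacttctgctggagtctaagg
Nfkb2: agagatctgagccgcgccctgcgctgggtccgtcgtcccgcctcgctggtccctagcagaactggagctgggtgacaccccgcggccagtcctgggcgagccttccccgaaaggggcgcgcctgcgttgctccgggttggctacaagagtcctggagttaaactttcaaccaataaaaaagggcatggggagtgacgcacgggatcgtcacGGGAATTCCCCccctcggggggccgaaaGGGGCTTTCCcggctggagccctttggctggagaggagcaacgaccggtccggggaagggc
Nfkbia: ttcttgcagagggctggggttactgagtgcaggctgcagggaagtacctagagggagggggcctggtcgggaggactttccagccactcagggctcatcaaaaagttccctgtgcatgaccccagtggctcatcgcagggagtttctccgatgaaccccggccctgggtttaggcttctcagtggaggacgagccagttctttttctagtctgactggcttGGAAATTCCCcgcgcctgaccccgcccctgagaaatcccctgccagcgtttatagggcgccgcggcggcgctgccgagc
Tnfaip3: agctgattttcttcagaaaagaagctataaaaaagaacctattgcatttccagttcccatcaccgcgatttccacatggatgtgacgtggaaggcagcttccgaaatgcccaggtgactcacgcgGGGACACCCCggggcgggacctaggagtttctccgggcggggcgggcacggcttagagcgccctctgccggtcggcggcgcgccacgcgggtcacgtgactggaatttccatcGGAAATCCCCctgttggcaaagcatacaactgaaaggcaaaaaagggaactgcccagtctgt

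The consensus was found in 8 of the 10 windows and 6 of the 7 genes, against 4.51% of all 32851 windows and 5.14% of all 27025 genes in the table. The inhibitors were picked as genes that NF-kB can induce, so this share cannot be read as a result about these data. The Tnip3 match, GGGAAATCCC, began 54 bases before the start site and reads as a match on both strands. Rel held the same 10 letters, 92 bases before its start, with a further match overlapping them by all but 1 base. Nfkb2 had matches in each of its 3 windows: GGGAATTCCC began 39 bases and GGGGCTTTCC 11 bases before the first start site. GGGACTTTCC stood in the other 2 Nfkb2 windows, which overlap and share it. Nfkbia held GGAAATTCCC 29 bases before its start. Nfkbie held GGGGGATTCC 106 bases before. Tnfaip3 held 2 matches in 1 of its 2 windows and the Rela window held none. The matches are letters only, and they were present both in Tnip3, which fell in KO, and in genes whose groups overlapped.

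The comparison of KO with WT asked whether the machinery of NF-kB differed in transcript level in Tregs without DJ-1. By limma at an adjusted p of 0.05, 1 of the 10 genes fell in KO, Tnip3, and none rose. Over all tested genes 0.266% fell and 0.0072% rose. The 2 subunits most tied to the alternative branch, Nfkb2 and Relb, were each lower in all 3 KO arrays than in any WT array without passing the adjusted threshold, and 11.3% of all tested genes had that pattern. At an unadjusted limma p of 0.05 these 3 genes were lower and none was higher, against 7.67% of all tested genes lower and 2.99% higher. Without KO replicate 1 the genes under that p were Relb and Tnip3, lower, and Tnfaip3, higher, and without WT replicate 1 or WT replicate 2 Nfkb2 was no longer among them. The other 7 genes overlapped between the groups. In all, 6 of the 10 were lower in KO on average, against 59.7% of all tested genes. The median difference over the 10 genes was -0.15 log2 units, against -0.05 over all tested genes, and -0.04 without KO replicate 1, against -0.01.

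**Figure D1:**
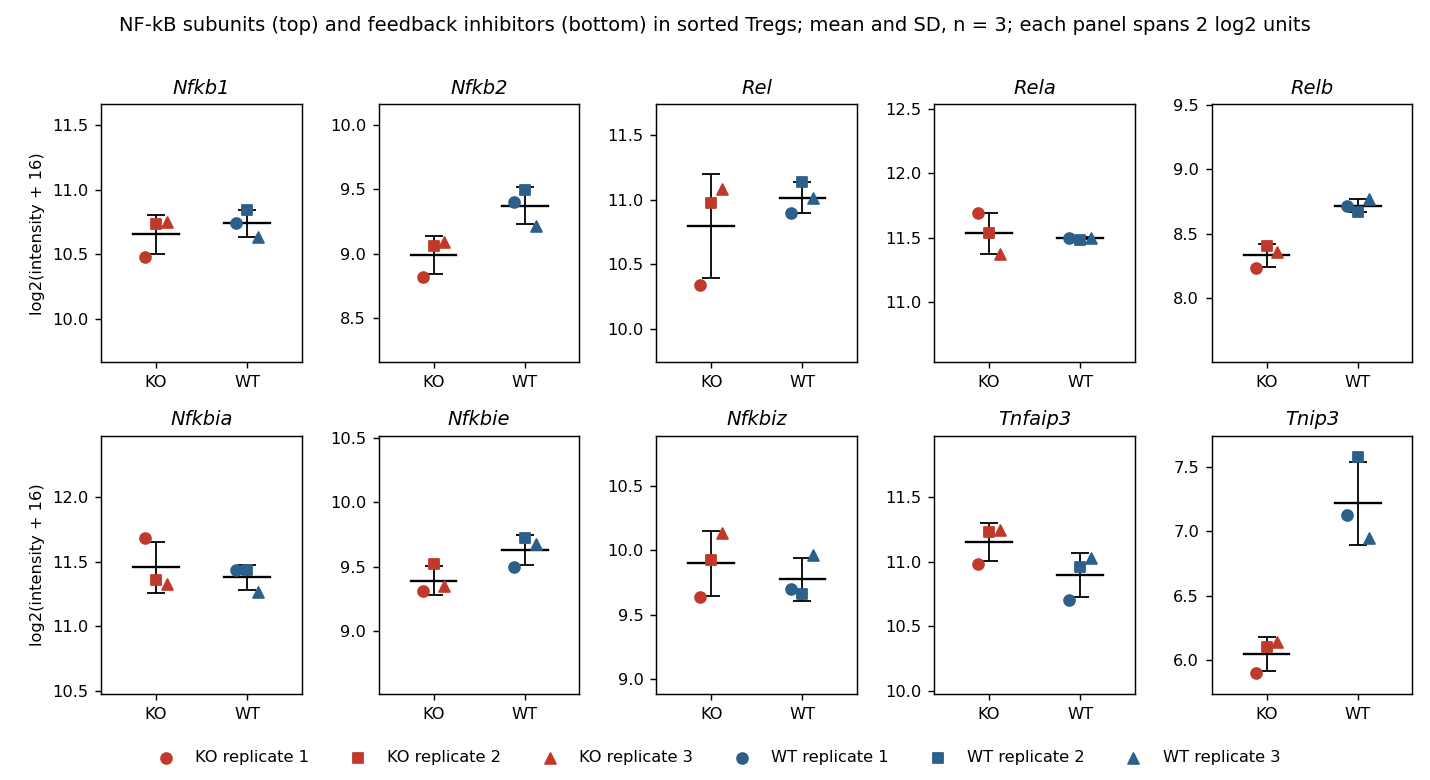
Level of each of the 10 genes as log2(intensity + 16) in every array, with KO left of WT in each panel; bars give the mean and SD of 3 arrays, and each panel spans the same range with its own position. KO and WT points are apart in Nfkb2, Relb and Tnip3 and overlap in the other 7 panels, and the low point of Rel in KO is replicate 1.

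Tnip3 encodes ABIN-3, a member of the family of proteins that bind A20, named from work in human cells. It is listed here among the feedback inhibitors, but inhibition of NF-kB by the mouse protein was not measured. Tnip3 was at 5.90, 6.10 and 6.15 log2 units in KO replicates 1 to 3, against 7.13, 7.58 and 6.95 in WT replicates 1 to 3. Every KO array lay below every WT array, with KO replicate 3 and WT replicate 3 the closest. The means were 6.05 ± 0.13 in KO and 7.22 ± 0.32 in WT (SD, n = 3 each), a difference of -1.17 (SE 0.18, 95% interval -1.57 to -0.76, limma adjusted p = 0.0350). The KO level lay close to the floor of 5.90, so the size of the difference depends on the added 16: it was -1.38 with an added 1 and -0.79 with an added 64. With the mean of its probe sets in place of the median it was -0.61 (limma adjusted p = 0.0705). The median fell on probe sets 17459206, 17459197 and 17459203 in KO replicates 1 to 3. In WT replicates 1 to 3 it fell on 17459206, 17459202 and 17459206. The difference of -1.17 thus also depends on which probe set was the middle one in each array, and 17459197 lay under the floor by its mean. Whichever 1 of the 6 arrays was left out, Tnip3 did not pass: the limma adjusted p then lay between 0.0662 and 0.167 and the difference between -1.30 and -0.99.

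The Tnip3 probe sets show where that signal lies. Of its 9 probe sets 6 lay at or above the floor by their mean over the 6 arrays. All 6 were lower in KO on average, against 53.4% of all probe sets above the floor. Probe set 17459203, at 5.61, 5.78 and 6.15 in KO against 6.59, 7.18 and 6.48 in WT, lay above the floor only through its WT arrays. Under the floor, 17459199 differed by 0.43 and 17459197 by -0.08, both with overlap, and 17459200 by -0.90 without overlap. Probe set 17459201 was at 6.04, 6.56 and 5.90 in KO replicates 1 to 3, against 7.70, 7.63 and 7.04 in WT replicates 1 to 3, a difference of -1.29. Probe set 17459204, one of the brighter ones, was at 8.10, 7.78 and 7.58 in KO, against 8.86, 8.34 and 8.95 in WT. In both, all KO arrays lay below all WT arrays, as in 5 of the 6 probe sets above the floor, against 8.57% of all probe sets above it. The exception, 17459205, differed by -0.19 and overlapped. Probe sets of 1 gene share their RNA and are not independent, and with all 269751 probe sets tested none of the 143 passed by limma (lowest adjusted p 0.510; 17 lower and 6 higher at an unadjusted p of 0.05). Over all probe sets 0.000741% were called lower and 0.000371% higher, and at the unadjusted threshold 4.37% were lower and 3.23% higher.

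By root mean square distance between centred log2 profiles over the 6 arrays, the genes nearest to Tnip3 were Cobl (0.102), Vcam1 (0.122), Pex11a (0.155), Baiap3 (0.161) and Tspan3 (0.172). All 5 were lower in every KO array than in any WT array, which follows from their being chosen for likeness to Tnip3. Cobl, an actin nucleator, differed by -1.18 and Vcam1, an adhesion molecule found on macrophages and stroma, by -1.15.

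Among the subunits, Relb and Nfkb2 stood lower in KO. Relb, the alternative branch partner of the processed Nfkb2 product, was at 8.24, 8.40 and 8.36 in KO replicates 1 to 3, against 8.71, 8.67 and 8.77 in WT replicates 1 to 3. The groups did not overlap, and the spread within each was small (8.33 ± 0.09 in KO and 8.72 ± 0.05 in WT, SD, n = 3 each). The difference was -0.38 (SE 0.13, 95% interval -0.68 to -0.09), with a limma unadjusted p of 0.0154 and an adjusted p of 0.329. Of its 16 probe sets above the floor 15 were lower in KO on average, against 53.4% of all probe sets above it, and 5 were lower without overlap, against 8.57%. With the mean of probe sets in place of the median the difference was -0.22.

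Nfkb2, whose product is both an inhibitor as a precursor and a subunit once processed, was at 8.82, 9.06 and 9.09 in KO, against 9.40, 9.49 and 9.21 in WT. All 3 KO arrays were again the lowest, with KO replicate 3 and WT replicate 3 the closest. The difference was -0.38 (SE 0.15, 95% interval -0.71 to -0.05, limma unadjusted p = 0.0276, adjusted p = 0.395), and -0.30 without KO replicate 1. Its probe sets moved alike: 19 of 20 were lower in KO, against 53.4% of all probe sets above the floor, and 12 of 20 were lower without overlap, against 8.57%. An unadjusted limma p under 0.05 was found in 9 of 20, against 4.37% of all probe sets lower at that threshold. The largest of these differences was in probe set 17359974, at 8.75, 10.04 and 9.34 in KO, against 10.48, 10.40 and 10.40 in WT. Probe set 17359986 was at 10.18, 10.18 and 10.38 in KO, against 10.77, 10.99 and 10.63 in WT. The one probe set that was higher in KO, 17359987, differed by 0.15.

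The canonical subunits gave differences nearer to 0. Nfkb1, the precursor of the small canonical subunit, was at 10.48, 10.73 and 10.75 in KO, against 10.74, 10.84 and 10.63 in WT, a difference of -0.08 with a 95% interval of -0.40 to 0.23. Its 26 probe sets were split, 14 lower and 12 higher in KO. Rela, the main activating subunit, was at 11.69, 11.53 and 11.38 in KO, against 11.50, 11.49 and 11.50 in WT, so the WT arrays lay within the range of the KO arrays. Its difference was 0.04 with a 95% interval of -0.27 to 0.35, and it turned to -0.04 without KO replicate 1.

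Rel, the subunit c-Rel that is prominent in lymphocytes and helps to start Foxp3 expression, was at 10.34, 10.98 and 11.08 in KO, against 10.90, 11.14 and 11.01 in WT. KO replicate 1 was the lowest array and the other KO arrays lay among the WT arrays. The difference was -0.22 (95% interval -0.66 to 0.23, limma adjusted p = 0.732), and 0.01 without KO replicate 1. Of its 12 probe sets 10 were lower in KO on average, against 53.4% of all probe sets above the floor. The other 2 were higher, 17261118 by 0.12 with overlap and 17261119 without. The second was at 9.17, 8.91 and 9.04 in KO, against 8.38, 8.72 and 8.32 in WT, a difference of 0.56.

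**Figure D2:**
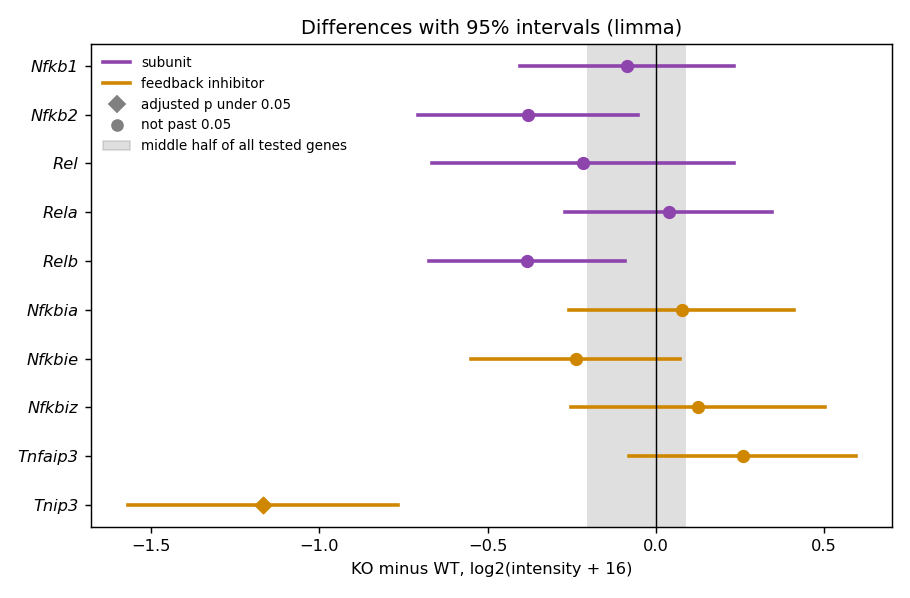
Difference KO minus WT of each gene in log2(intensity + 16) with its 95% interval from limma, n = 3 arrays per group; the grey band holds the middle part of the differences of all tested genes, between the quartiles of -0.20 and 0.09. Tnip3 (-1.17) lies far left of the band, the intervals of Nfkb2 and Relb end below 0, and the other 7 intervals include 0.

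The inhibitors of the IkB family and A20 did not pass in either direction. Nfkbia, the IkB protein that is resynthesised fastest after NF-kB activation, was at 11.68, 11.36 and 11.32 in KO, against 11.43, 11.43 and 11.27 in WT. KO replicate 1 was the highest array and the other KO arrays lay among the WT arrays. The difference was 0.08 (95% interval -0.26 to 0.41), and -0.04 without KO replicate 1. Nfkbie, which holds back pairs with Rel in lymphocytes, was at 9.31, 9.52 and 9.35 in KO, against 9.50, 9.72 and 9.67 in WT, a difference of -0.24 (95% interval -0.55 to 0.07, limma adjusted p = 0.587). The groups met only where KO replicate 2 exceeded WT replicate 1. All 8 Nfkbie probe sets were lower in KO on average, against 53.4% of all probe sets above the floor.

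Tnfaip3 and Nfkbiz had the highest positive differences of the 10. Tnfaip3, the ubiquitin-editing enzyme A20 that ends NF-kB signalling, was at 10.98, 11.23 and 11.25 in KO, against 10.70, 10.96 and 11.03 in WT. Only KO replicate 1 lay within the range of the WT arrays, and the difference was 0.26 (95% interval -0.08 to 0.60, limma adjusted p = 0.589). It was 0.34 without KO replicate 1, 0.16 without WT replicate 1 and 0.07 with the mean of probe sets. In that mean, probe set 17239598 counts with 5.84 in KO replicate 1 against 8.39 to 9.22 in the other 5 arrays. Among the 11 Tnfaip3 probe sets above the floor, 2 were lower in KO on average, against 53.4% of all probe sets above it.

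Nfkbiz encodes IkB-zeta, an atypical nuclear IkB protein that modulates transcription rather than holding NF-kB in the cytoplasm. It was at 9.63, 9.92 and 10.14 in KO, against 9.70, 9.66 and 9.97 in WT, a difference of 0.13 (95% interval -0.25 to 0.50, limma adjusted p = 0.823) that ranged between 0.01 without KO replicate 3 and 0.26 without KO replicate 1. Only 4 of its 18 probe sets above the floor were lower in KO on average, against 53.4% of all probe sets above it. In 7 of the 18 above the floor all KO arrays lay above all WT arrays, against 6.96% of all probe sets above the floor. Probe set 17330976 was at 9.17, 9.08 and 9.04 in KO, against 8.59, 8.38 and 8.40 in WT, and 17330983 at 8.30, 8.37 and 8.13 in KO, against 7.63, 7.69 and 7.61 in WT. Probe set 17330974 went the other way, with a difference of -0.45 and overlap. The annotation gives no exon for these probe sets, so they could not be placed in the transcript.

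**Figure D3:**
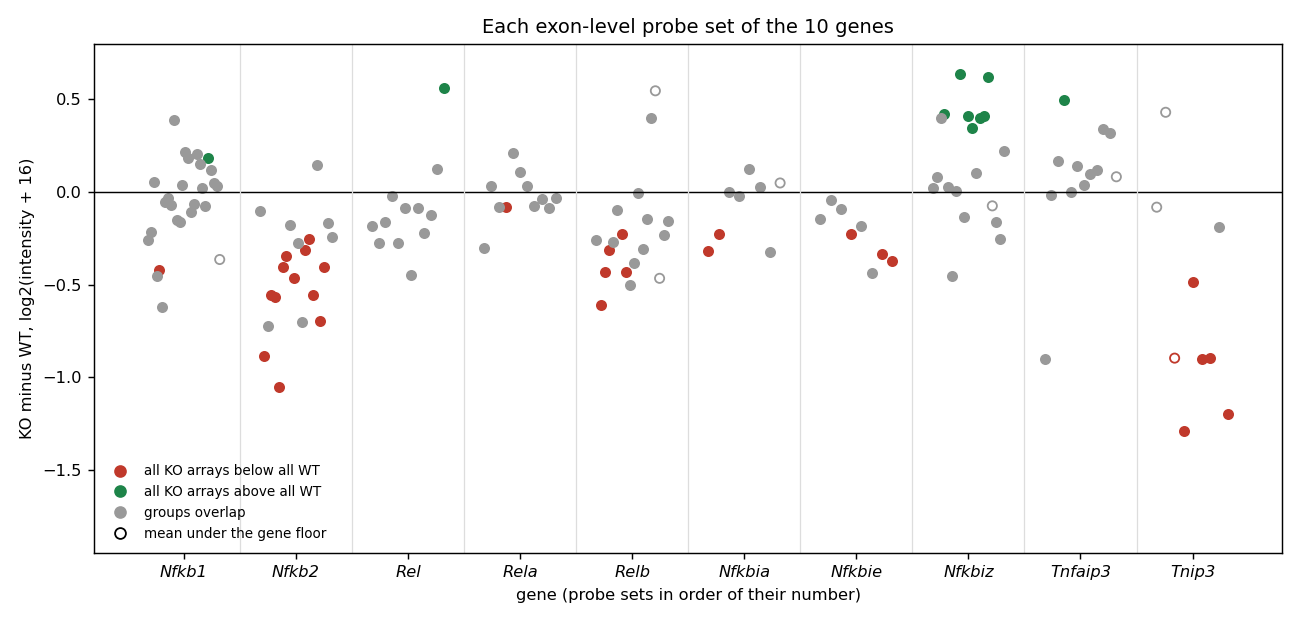
Difference KO minus WT in log2(intensity + 16) of each of the 143 probe sets, by gene and in order of probe set number; colour tells whether the 3 KO arrays lay below, above or among the 3 WT arrays, and open points lay under the floor of 5.90. Points of Nfkb2 and Tnip3 lie mostly below 0, those of Nfkb1 and Rela lie around 0, and 7 points of Nfkbiz without overlap lie above 0.

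Over all 134 probe sets of the 10 genes above the floor, 89 (66.4%) were lower in KO on average, against 53.4% of all probe sets above the floor. The groups did not overlap in 29 with KO lower (21.6%, against 8.57%) and in 10 with KO higher, against 6.96%. Of those 29, 12 belonged to Nfkb2, 5 to Relb and 5 to Tnip3, and of the 10, 7 belonged to Nfkbiz.

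Further genes of the pathway were taken from lists, described by their counts. Of the 12 other IkB proteins and A20 partners none passed. On average 9 were lower in KO, against 59.7% of all tested genes, and the median difference was -0.13, against -0.05. Those with the smallest p were Tnip2, a relative of Tnip3 (-0.46), the nuclear IkB protein Bcl3 (-0.43) and Nfkbib, the beta form of IkB (-0.21). Bcl3 differed by -0.62 without KO replicate 1 and by -0.28 without KO replicate 2. Nfkbib was at 10.11, 10.05 and 10.09 in KO, against 10.23, 10.29 and 10.37 in WT, without overlap. Of the 10 kinases around IKK and NIK none passed (median 0.03). Ikbkb, the IKK subunit that phosphorylates IkB, differed by 0.29, NIK, encoded by Map3k14, by 0.23 and the IKK-related kinase Tbk1 by -0.38. Tbk1 was low in KO replicate 1 (8.21, against 9.08 to 9.26 in the other 5 arrays) and differed by -0.09 without it. Without WT replicate 1 the difference was 0.16 for Ikbkb and 0.09 for Map3k14.

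Of the 20 adaptors and ubiquitin ligases tested none passed (median -0.03). The 3 with the smallest p were Malt1 (-0.84), the protease that links the antigen receptor to IKK, Prkcq (0.36), the kinase upstream of it, and Birc2 (-0.46), a ubiquitin ligase that keeps NIK low. Malt1 was at 8.75, 9.84 and 9.86 in KO, against 10.50, 10.48 and 10.01 in WT, and Prkcq at 11.44, 11.45 and 11.46 in KO, against 11.07, 11.16 and 11.03 in WT. Neither overlapped. The limma adjusted p-values of these 3 were 0.329, 0.346 and 0.400. Without KO replicate 1 the difference was -0.48 for Malt1 and -0.28 for Birc2.

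Among the lists, the receptors that feed NF-kB held the most negative single differences. Of 13 tested, 9 were lower in KO on average, against 59.7% of all tested genes, and the median difference was -0.16. Tnfrsf9 (-2.40, limma adjusted p = 0.0209) and Tnfrsf1b (-1.05, limma adjusted p = 0.0224) fell and none rose, against 0.266% of all tested genes that fell and 0.0072% that rose. Tnfrsf9, the costimulatory receptor 4-1BB, was at 8.99, 9.73 and 8.15 in KO, against 11.34, 11.49 and 11.23 in WT. Tnfrsf1b, a receptor for TNF, was at 10.53, 10.64 and 10.28 in KO, against 11.58, 11.49 and 11.52 in WT. By the RefSeq table both genes lie on chromosome 4, as does Park7, along with Tnfrsf4, Tnfrsf18 and Tnfrsf25, whereas none of the 10 NF-kB genes does. Tnfrsf4 differed by -0.40 without overlap (limma adjusted p = 0.337), while Tnfrsf18 (-0.07) and Tnfrsf25 (0.01) overlapped. The part of that location in the differences was not tested. Neither Tnfrsf9 nor Tnfrsf1b passed when a WT array was left out (limma adjusted p 0.104 to 0.134), and Tnfrsf1b also did not pass without KO replicate 3 (adjusted p 0.108).

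**Figure D4:**
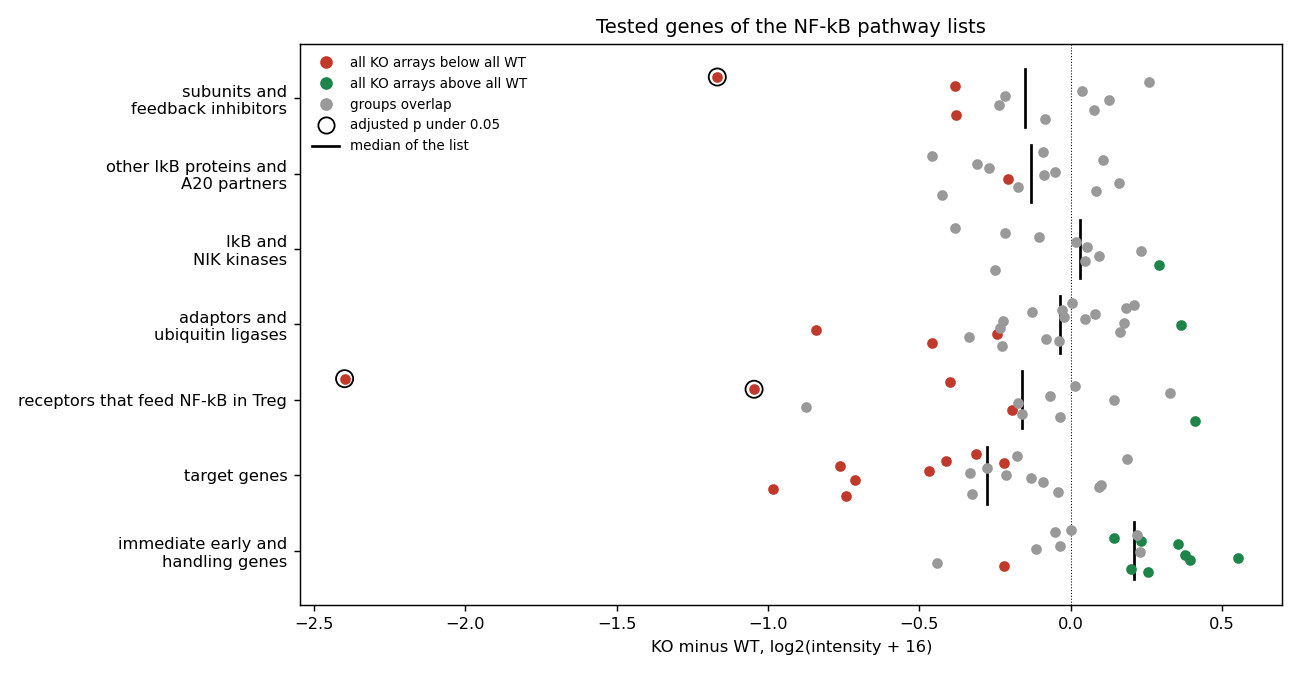
Difference KO minus WT in log2(intensity + 16) of each tested gene, by list; colour tells whether the 3 KO arrays lay below, above or among the 3 WT arrays, rings mark an adjusted p under 0.05 and black lines the list medians. Rings stand on Tnip3, Tnfrsf1b and Tnfrsf9 alone; the target genes have the lowest median (-0.28) and the immediate early genes the highest (0.21).

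Of 19 tested genes that NF-kB is known to induce, none passed, 16 were lower in KO on average, against 59.7% of all tested genes, and 8 were lower in every KO array than in any WT array, against 11.3%. The median difference was -0.28. The 3 with the smallest p were Batf (-0.74), a transcription factor of effector Tregs, the chemokine Ccl5 (-0.98) and the suppressive cytokine Il10 (-0.76). Ccl5 differed by -0.71 without KO replicate 1. Batf was at 9.25, 9.58 and 9.10 in KO, against 10.11, 10.09 and 9.95 in WT (limma adjusted p = 0.123, and 0.0391 with array weights), and Il10 at 7.20, 8.04 and 7.59 in KO, against 8.63, 8.24 and 8.26 in WT (limma adjusted p = 0.259). These genes also answer to other pathways, and the list gives no reading of NF-kB activity, which depends on the location of the proteins.

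Immediate early and handling genes, which cells switch on within minutes of many stimuli, had a positive median difference, 0.21. Of 16 tested none passed and 5 were lower in KO on average, against 59.7% of all tested genes, and 8 were higher in every KO array than in any WT array, against 6.1% of all tested genes. Fosb differed by 0.55, Fos by 0.39 and Hsp90aa1 by 0.38. Among the 5 that were lower, Egr2 differed by -0.44 with overlap and Egr1 by -0.22 without overlap. The part of the immediate early and handling genes in the differences of Nfkbiz and Tnfaip3 was not tested.

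Other cells of the spleen also express these genes, and in sorted bulk RNA fewer cells of a type and less RNA per cell cannot be told apart. Over all tested genes 59.7% were lower in KO on average, and 8 of the 9 Treg markers were. The marker counts that follow include genes under the floor. Of 9 macrophage and monocyte markers 8 were lower in KO on average. Their mean level was 6.15 to 6.21 in the KO arrays, against 6.28 to 6.77 in the WT arrays. Emr1, Lyz2 and Fcgr1 were under the floor, and Fcgr1 was higher in every KO array than in any WT array (0.35). Vcam1 fell, and Csf1r was at 6.03, 5.68 and 5.81 in KO, against 6.20, 6.71 and 6.21 in WT. Of 9 B cell markers 7 were lower, with a mean level of 7.41 to 7.74 in the KO arrays against 7.76 to 8.05 in the WT arrays. The MHC class II genes H2-Aa (-1.26) and H2-Ab1 (-1.24) fell (limma adjusted p = 0.0406 and 0.0343). Cd74 differed by -0.67 without overlap (limma adjusted p = 0.117). Cd79a (-0.23), Cd79b (-0.17) and Cd22 (-0.03) overlapped between the groups. Ms4a1 (0.13), Pax5 (0.06) and Blk (-0.15) were under the floor and overlapped as well. Of 7 dendritic cell markers 6 were lower, Itgax, Flt3, Siglech and Clec9a were under the floor, and the mean level was 5.71 to 6.04 in KO and 5.97 to 6.11 in WT. Of 5 plasma cell markers 4 were lower, with a mean level of 7.19 to 7.59 in the KO arrays against 7.47 to 7.97 in the WT arrays. Prdm1, which effector Tregs also express, differed by -0.92 and Igj by -0.85, both with overlap (limma adjusted p = 0.362 each). Of 6 NK cell markers 3 were lower, and Ncr1 was at 5.99, 6.54 and 6.61 in KO, against 6.90, 7.19 and 7.61 in WT, a difference of -0.85 (limma adjusted p = 0.212), while Klrb1c was higher in every KO array (0.28). Of the 6 neutrophil, 2 CD8 T cell and 2 erythroid markers measured, 2, 1 and 2 were lower. The part of such cells in the lower Tnip3, Relb and Nfkb2 levels was not tested.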

How the data were processed

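Per the labels, the deposited values are intensities, 1 per exon-level probe set and array, summarised with PLIER in Affymetrix Expression Console 1.4, per the submitters' processing notes. The background correction, array-to-array normalization, genome build, and any scan or slide batch are not given in the sources used here. A single symbol was annotated for 233753 of 269751 probe sets. Intensities were taken as log2(intensity + 16) and each gene as the median over such probe sets. Genes whose mean was below the 40th percentile (5.90) were not tested, and 13891 were. The test of KO against WT was limma's (version 3.58.1, R 4.3.3, two-sided), with Benjamini-Hochberg adjustment over all tested genes, or over all probe sets, and a threshold of 0.05. With 3 arrays against 3, exact permutation gives no p under 0.1. The test was checked on simulated data with independent noise in each gene and array. That check holds no effect shared across an array, so it does not cover an array that stands apart, as KO replicate 1 does.

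The members and lists were chosen with earlier results of these data known. All 10 members are named, from each list the genes past the threshold or else the 3 with the smallest p, the 5 nearest profiles to Tnip3, and Park7. Other genes and probe sets in the text were named after their values were seen. Replicate numbers are not said to mark litters. Alternatives were other pseudocounts (1 and 64), filters, summaries, normalizations, variance models, the replicate block and leaving out each array; list counts without KO replicate 1 were added after seeing the data.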

Additional observations from a re-analysis of the deposited data

How the results depend on the processing

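Tnip3 kept its direction in all 17 alternatives that measured it (at the stricter filter, the 60th percentile, it was not tested) and its call in 6. Its difference did not pass with an added 64 (-0.79, limma adjusted p = 0.0541), without a filter (-1.17, adjusted p = 0.0509), with the mean of probe sets (-0.61, adjusted p = 0.0705), with bright probe sets only (-0.79, adjusted p = 0.167) or without moderation (-1.17, adjusted p = 0.353); leaving out 1 array gave -1.30 to -0.99 and none passed. The number of the 10 genes past the threshold was thus 0 in each of these and at the stricter filter. The other 9 genes passed in none of the alternatives. At an unadjusted p of 0.05 Relb did not pass with the mean of probe sets, and Tnfaip3 passed, as higher, with array weights; Batf passed the adjusted threshold with array weights (-0.78, adjusted p = 0.0391). Nfkb2, Relb, Nfkbie, Nfkbiz and Tnfaip3 kept their direction in all 18. With 1 array left out the differences of the other 4 genes ranged from -0.14 to 0.0013 for Nfkb1, -0.36 to 0.014 for Rel, -0.037 to 0.14 for Nfkbia and -0.040 to 0.12 for Rela, and each turned sign without KO replicate 1 alone; Nfkbia and Rela were also lower in KO with the mean of probe sets (-0.087 and -0.029) and with array weights (-0.024 and -0.031). The cause was not tested. The median difference of the 10 genes stayed negative, between -0.21 and -0.04. The median level of the 10 genes had an SD of 0.171 between arrays of a group, which does not measure the spread of that difference. Without KO replicate 1 the target genes had 14 of 19 lower (median -0.26), and the immediate early genes 4 of 16 lower (median 0.18). Over all tested genes 7200 of 13891 were then lower (median -0.01).

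Genes past the threshold over the whole table, 37 lower and 1 higher in KO, numbered 105 and 20 with array weights, 0 and 0 without moderation (868 and 467 at an unadjusted p of 0.05), 62 and 5 with the replicate block, and 4 to 34 and 0 to 3 with 1 array left out (lowest without WT replicate 1 or 2). Higher genes numbered 0 with an added 1 and without a filter, 4 with an added 64, at the stricter filter and with trend and robust moderation, 10 with the mean of probe sets, 2 with bright probe sets, 7 with quantile normalization and 6 with median centring. The correlations of same-numbered KO and WT arrays, taken as deviations from group means, were 0.15, 0.17 and 0.01, against -0.19 to 0.09 for arrays of different number, and KO replicate 3 correlated best with WT replicate 2. Whether the numbers mark a shared litter or batch is neither stated nor settled by these values; under the replicate block Tnip3 passed and the other 9 genes did not.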
